A study of Mus musculus with 32 samples.

Results

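In the mouse bladder, 238 of 32285 counted genes followed a U over age, with their lowest mean level at 10 months and higher levels at both 2 and 26 months. The members were chosen from the counts themselves. Counts were scaled to library size (CPM) with TMM factors, a normalisation that keeps a few very abundant genes from setting the scale, and group means were taken of log2(CPM + 0.1). A member had a mean CPM of 0.5 or more at 2 months or at 26 months, a 10-month mean at least 0.5 below the 2-month mean, and an untreated 26-month mean at least 0.5 above the 10-month mean, both on the log2(CPM + 0.1) scale. Of 16484 genes past the CPM minimum, 10 more had this pattern and were left out because of how their symbols begin, among them Cxcl9, Cxcl10, Ccl2, Ccl7 and Fos. Levels at 2, 10 and untreated 26 months therefore chose the genes, and they are given below as a description. Counts of calls between these ages restate that choice, and no p-value is given for them.

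Total RNA was sequenced from whole bladders of female C57BL/6 mice in 6 groups, with 1 library per bladder. Young mice were 2 months old (n = 6), middle-aged mice 10 months (n = 5) and untreated old mice 26 months (n = 6). The remaining old mice were also 26 months old and had been gavaged. They received water (n = 5), a vehicle of 60% Phosal 50 PG, 30% PEG 400 and 10% ethanol (n = 4), or the senolytic pair dasatinib at 5 mg/kg per day and quercetin at 50 mg/kg per day in that vehicle (D + Q, n = 6). Gavage was monthly between 21 and 26 months of age, in courses of 3 days in a row for vehicle and D + Q. No transgene or deletion is described for any group. Per bladder, 15088372 to 52650259 reads were assigned to genes, and 3 counts corresponded to between 0.0571 and 0.203 CPM. Young bladders 3 and 4 and water bladder 1 had fewer than 20000000 counts each. Mitochondrially encoded genes took 2.12% to 3.32% of counts.

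The members came mostly from a few well-known programmes. Dividing cells switch on genes for copying DNA in S phase and then genes for the spindle, chromosome segregation and cytokinesis, while resting tissue such as adult bladder keeps both sets low. Leukocytes resident in the bladder wall carry their own receptors and effector molecules. Immediate early genes answer stretch, growth factors and handling within minutes, and Alkal1 encodes a secreted ligand of the receptor tyrosine kinases ALK and LTK. By known role, 29 members served DNA replication and repair, 54 served mitosis, 21 were lymphoid, 25 myeloid, 16 early response or stress-induced, 9 matrix, 6 striated muscle, 10 neural and 3 epithelial, beside Alkal1. A further 40 named genes had other roles, and 24 had only a provisional symbol. These roles were assigned with the member list in view, so their sizes were not tested.

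Over the members, the median difference was -0.84 from 2 to 10 months and 0.99 from 10 to 26 months. The old and young ends of the U were on average level, with a median difference of 0.07. At 26 months untreated, 57 members stood at least 0.5 above their 2-month mean, 19 at least 0.5 below it, and 162 lay in between. Just inside the threshold were Ica1l, with a rise of 0.501 after 10 months, and Ogn, with a fall of 0.501 before it. Just outside were Rhoh, a haematopoietic GTPase, whose first difference was -0.499, and Dscc1, a cohesion factor, whose second difference was 0.499. The members were low-abundance genes, with a median 10-month level of 0.965 CPM against 22.3 CPM for all genes past the minimum. In 23 members at least 1 of the 10-month bladders held 3 counts or fewer.

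In single bladders the lower ends were less even than the means. All 5 middle-aged bladders lay below every untreated old bladder for 129 members, below every young bladder for 38, and below both for 25, and over all genes past the minimum these shares were 7.91%, 2.77% and 0.322%. By edgeR's quasi-likelihood test with an adjusted p under 0.05, 117 of 224 members tested were called lower at 10 than at 2 months, where 5.85% of all genes were, and 211 of 232 were called higher at untreated 26 than at 10 months, where 13.0% of all genes were. The rule used both contrasts, so these counts restate the choice of members. The first count was unsteady, at 33 to 69 members when young bladder 1, 2 or 6 or any 1 middle-aged bladder was left out, and at 163 without young bladder 4. Whole bladders were sequenced, so fewer cells of a type and less RNA per cell cannot be told apart.

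The young group was the uneven arm. A role score, the mean over a role's members of log2(CPM + 0.1) minus its 10-month mean, summarises each bladder. For the 83 replication and mitosis members together it was 2.28, 1.78 and 1.26 in young bladders 1, 2 and 6, and 0.50, 0.16 and 0.40 in young bladders 3, 4 and 5. The 5 middle-aged bladders ran from -0.23 to 0.32 and the 6 untreated old bladders from 0.67 to 1.59. Young bladder 4 thus lay within the 10-month range for these genes and every untreated old bladder above it. The summed level of a list of 21 fibroblast genes had the same order in young bladders, with 35644, 33281 and 28459 CPM in bladders 1, 2 and 6 and 22682, 19966 and 20359 CPM in bladders 3, 4 and 5, against 13771 to 17384 CPM at 10 months and 13152 to 14959 CPM in untreated old bladders. Young bladders 3 and 4 were also the 2 shallowest libraries of the series, while young bladder 5 was not shallow. The list includes collagen genes such as Col1a1 and Col3a1, so its sum does not measure fibroblast number alone. The part of fibroblast and matrix gene levels and of depth in the young arm was not tested. Without young bladders 3 and 4 the rule selected 357 genes, 221 of them members, and edgeR called 180 members lower at 10 than at 2 months. Both bladders had low scores and were left out after seeing the data, so these larger counts are built in.

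**Figure D1:**
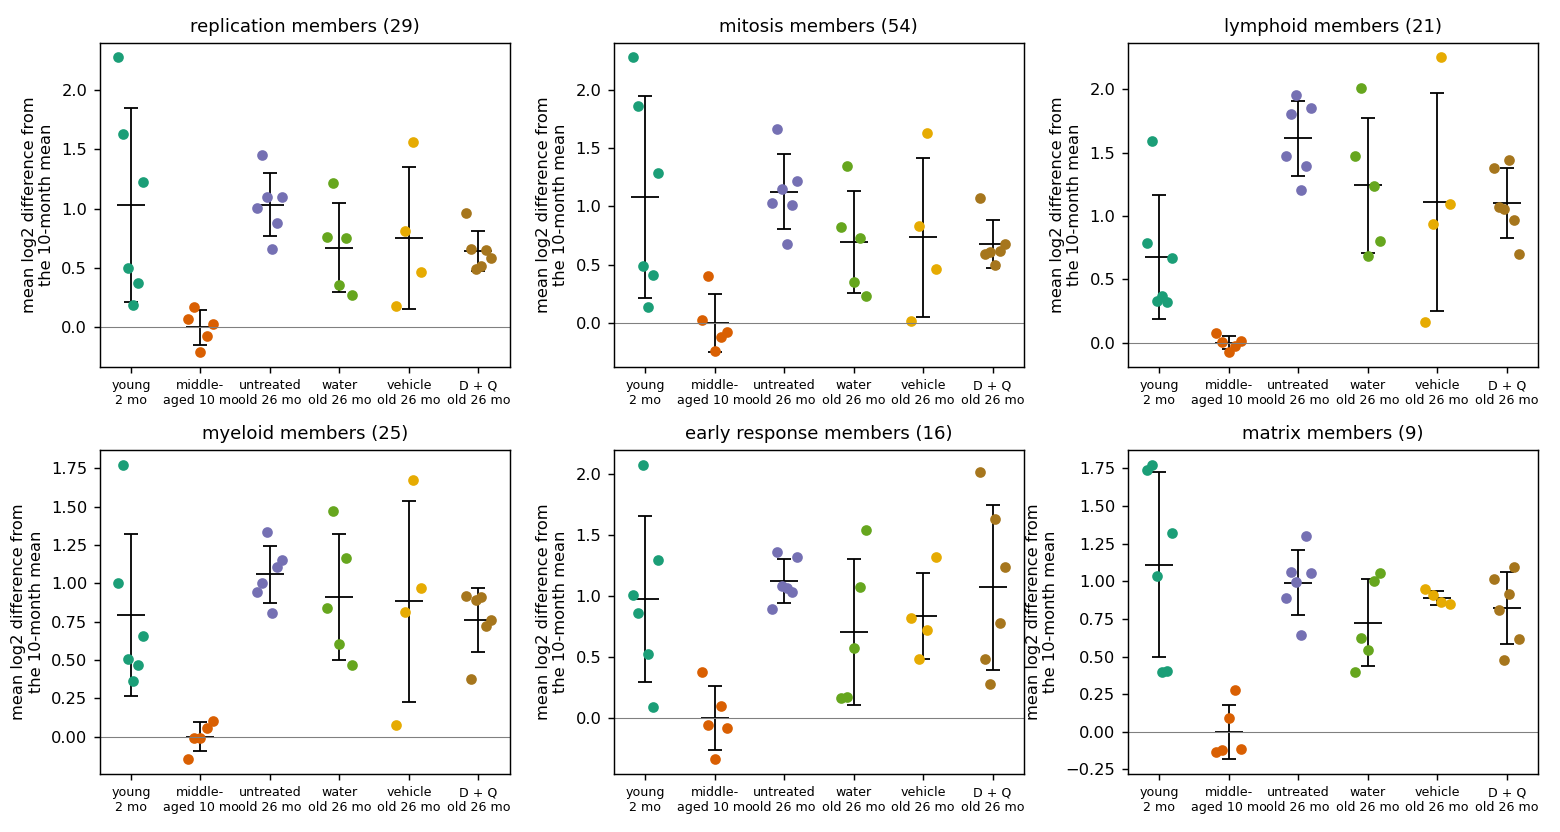
Points are bladders, horizontal bars are group means and whiskers are SD. The vertical axis is the mean log2(CPM + 0.1) of the members of a role minus its 10-month mean, for 6 of the roles, with 0 at the 10-month mean. Young bladders spread from 0.14 to 2.28 for mitosis, where middle-aged bladders run from -0.24 to 0.40, and vehicle bladders run from 0.17 to 2.25 for lymphoid members.

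Repeating the selection with 1 bladder left out, and reading the selected genes in that bladder alone, kept the bladder that was read out of the choice. The means it was read against still came from the bladders that chose the genes, so part of each share is built in. In each untreated old bladder, 96.6% to 98.8% of the genes selected without it lay above the 10-month mean, where 42.6% to 46.8% of all genes past the minimum did. In each middle-aged bladder, 88.2% to 95.3% lay below both the young and the untreated old mean, where 26.6% to 31.5% of all genes did. In the young bladders the share above the 10-month mean was 95%, 98.1% and 95.3% in bladders 1, 2 and 6 and 74.1%, 63.7% and 77.9% in bladders 3, 4 and 5, where 45.4% to 49.3% of all genes lay above it. The selected sets held between 207 and 289 genes. Scaling factors were taken over all bladders, and the genes share their bladders, so these shares carry no test.

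**Figure D2:**
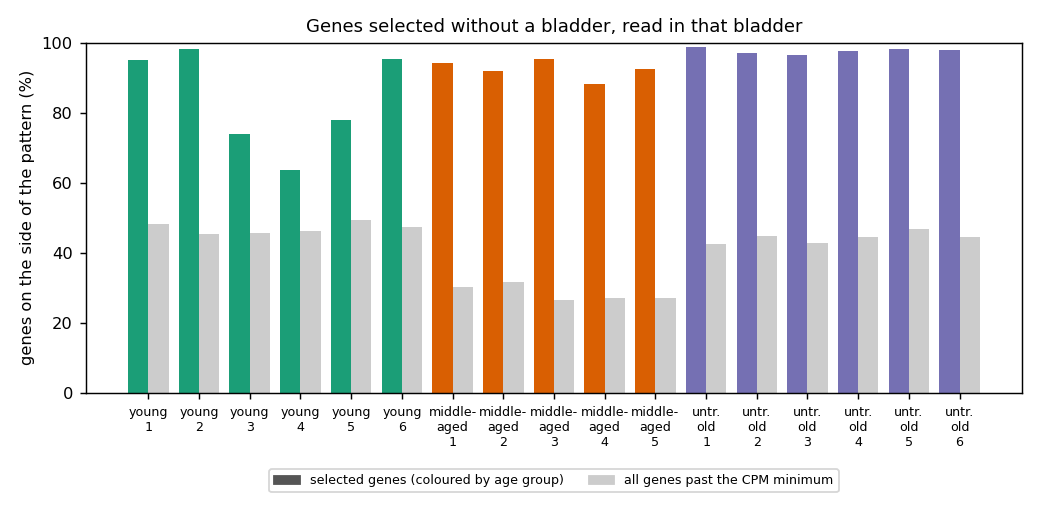
For each of the 17 bladders of the rule, the coloured bar is the percentage of genes selected without that bladder that lay on the side of the pattern in it (above the 10-month mean for young and untreated old, below both other means for middle-aged), and the grey bar is the same over all genes past the CPM minimum. Coloured bars exceed grey ones in all 17 bladders and are lowest, at 63.7% to 77.9%, in young bladders 3, 4 and 5.

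Alkal1, at chr1:6359218-6394731 on the plus strand (mm10), was close to undetected at 10 months. Its read counts in the 5 middle-aged bladders were 0, 2, 0, 3 and 5, so 4 of them were at or under 3 counts. The young bladders held 15, 16, 8, 8, 1 and 13 counts, and the untreated old bladders 9, 11, 19, 5, 85 and 31. The mean level was 0.424 ± 0.197 CPM (SD, n = 6) at 2 months, 0.0573 ± 0.0589 CPM (n = 5) at 10 months and 0.664 ± 0.708 CPM (n = 6) in untreated old bladders. The young values were even except for bladder 5, at 0.0293 CPM, and untreated old bladder 5 stood above the rest at 2.06 CPM. Every untreated old bladder was above every middle-aged one, by a narrow margin of 0.141 against 0.138 CPM.

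Alkal1 stayed measurable in the gavaged old bladders. Water-gavaged bladders gave 0.210, 0.107, 0.227, 0.426 and 1.34 CPM and vehicle bladders 0.244, 0.107, 0.319 and 0.470 CPM. D + Q bladders ran from 0.189 to 0.463 CPM with a median of 0.343, all above the middle-aged bladders. D + Q differed from vehicle by 0.26 ± 0.42 (log2 fold change ± SE, edgeR, adjusted p = 0.994) and from water by -0.52 ± 0.54 (adjusted p = 0.857), so neither difference was detectable at this depth. Of the 16 genes on a list of ALK and LTK signalling, Alkal1 and Spry4 were members. The related ligand Alkal2 had means of 0.196, 0.207 and 0.226 CPM in young, middle-aged and untreated old bladders, the receptor Alk 0.0659, 0.0359 and 0.0447 CPM, and the receptor Ltk 0.221, 0.473 and 0.647 CPM. Spry4, an inhibitor that growth factor signalling induces, was 6.23 to 7.22 CPM in the middle-aged bladders, below all young (8.28 to 12.6 CPM) and all untreated old ones (9.32 to 13.8 CPM).

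The replication members spanned origin licensing, fork progression and repair. Among those whose middle-aged bladders lay below every young and untreated old bladder, Exo1, an exonuclease of mismatch and double-strand break repair, had the deepest U. Its middle-aged bladders gave 0.164, 0.159, 0.277, 0.283 and 0.193 CPM, its young bladders 0.359 to 2.71 CPM with a median of 0.791, and its untreated old bladders 0.509 to 1.05 CPM with a median of 0.785. The lowest young and highest middle-aged bladder were thus close, and the young maximum came from bladder 1. Clspn (claspin, which carries the replication checkpoint signal) was 0.537 to 0.827 CPM at 10 months, 0.880 to 5.01 CPM at 2 months and 1.22 to 2.89 CPM in untreated old bladders.

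Uhrf1, which keeps DNA methylation on newly copied strands, was more abundant than Exo1 and Clspn. It measured 2.55, 2.54, 2.88, 2.23 and 2.40 CPM in the middle-aged bladders, 3.58 to 22.1 CPM (median 7.18) in young and 5.06 to 8.33 CPM (median 6.12) in untreated old bladders. E2f7, a repressor of the E2F family, averaged 1.51 ± 0.704 CPM at 2 months, 0.421 ± 0.0846 CPM at 10 months and 0.996 ± 0.175 CPM in untreated old bladders. Mcm10, which helps to load the replication fork, averaged 1.93 ± 0.971, 0.875 ± 0.124 and 1.91 ± 0.616 CPM in that order. In all, 20 of 28 replication members tested were called lower at 10 than at 2 months and 29 of 29 higher at untreated 26 than at 10 months, in contrasts the rule used. Over all genes 5.85% were called lower in the first contrast and 13.0% higher in the second. None of the 29 was called between untreated 26 and 2 months, where 12.6% of all genes were called higher and 12.4% lower, and 1 was at an unadjusted p under 0.05, where 36.3% of all genes were.

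The mitosis members formed the largest role. Kif2c, a kinesin that takes microtubules apart at the centromere, was 0.295, 0.318, 0.332, 0.368 and 0.386 CPM in the middle-aged bladders. Its young bladders ran from 0.475 to 2.04 CPM with a median of 1.16 and its untreated old bladders from 1.09 to 2.08 CPM with a median of 1.36, so the groups did not overlap. Birc5 (survivin, of the chromosomal passenger complex) was 0.655, 1.34, 0.609, 0.537 and 0.800 CPM at 10 months, 1.35 to 3.60 CPM in young and 1.61 to 3.11 CPM in untreated old bladders, and its highest middle-aged bladder all but touched the lowest young one. Racgap1, which positions the cleavage furrow, averaged 6.75 ± 3.00 CPM at 2 months, 3.21 ± 0.547 CPM at 10 months and 6.00 ± 1.10 CPM in untreated old bladders.

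Mki67, Ccnb1 and Hmmr, the members of a cell cycle gene list with the deepest U, behaved alike but overlapped at the young end. Mki67, the antigen Ki-67, was 5.60, 6.65, 2.91, 4.35 and 3.81 CPM at 10 months, 5.58 to 30.8 CPM (median 11.7) at 2 months and 10.7 to 31.4 CPM (median 21.3) in untreated old bladders. Young bladders 4 and 5, at 5.80 and 5.58 CPM, lay within the middle-aged range. Ccnb1 (cyclin B1, the partner of Cdk1 at entry into mitosis) averaged 2.08 ± 1.55, 0.429 ± 0.211 and 1.62 ± 0.696 CPM in young, middle-aged and untreated old bladders, and Hmmr, a spindle assembly factor, 2.04 ± 1.38, 0.548 ± 0.140 and 1.80 ± 0.514 CPM. Of the mitosis members, 33 of 53 tested were called lower at 10 than at 2 months and 50 of 53 higher at untreated 26 than at 10 months, and 0 of 54 were called between untreated 26 and 2 months by edgeR, with 1 at an unadjusted p under 0.05. Over all genes 5.85% were called lower in the first contrast, 13.0% higher in the second and 25.1% in either direction in the third, and the first pair of contrasts had chosen the members.

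A list of 51 cell cycle genes held 31 members. Of the other 20, 18 were lower at 10 than at 2 months and 17 higher at untreated 26 than at 10 months, counting steps of any size. Over all genes tested by edgeR, the median log2 fold change was 0.0028 for the first step and -0.0047 for the second. Only 5 of the 20 met the first threshold and 1 met the second. Their differences ran from -0.77 to 0.21 for the first step and from -0.10 to 0.54 for the second, on the log2(CPM + 0.1) scale. Common proliferation markers were among them. Pcna had differences of -0.12 and 0.13, Tyms of -0.03 and -0.04, and Plk1 rose in both steps, by 0.21 and 0.30. None of the 10 listed replication-dependent histone genes past the minimum was a member. Since 238 of all 16484 genes past the minimum were members, a list of 10 would mostly hold none at that share. The sum over all 45 listed histone genes did not trace a U either. It was 54.8 to 66.7 CPM in young, 58.0 to 65.9 CPM in middle-aged and 53.1 to 120.5 CPM (median 56.7) in untreated old bladders.

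The stretches before the starts of 5 mitosis members are shown because letters known from the promoters of late cell cycle genes recur there. These are the cell cycle genes homology region (CHR), searched as TTTGAA and TTCGAA, and the CCAAT box, searched as CCAAT, on either strand. The sequences are RefSeq's on GRCm38.p6, 100 bases each on the minus strand and written 5′ to 3′ along the gene, ending before both the RefSeq start and the outer end of the gene in the count table. Capitals mark matches to either motif or to its reverse complement. They lie at chr10:69352939-69353038 (Cdk1), chr11:99024190-99024289 (Top2a), chr4:118437353-118437452 (Cdc20), chr11:40733438-40733537 (Hmmr) and chr13:100786571-100786670 (Ccnb1). Cdk1, Top2a and Cdc20 were picked because they hold both motifs, and Hmmr and Ccnb1 because their levels are given above. The stretches of Hmmr and Ccnb1 hold no CHR, and neither do most such stretches of mitosis members.
Cdk1: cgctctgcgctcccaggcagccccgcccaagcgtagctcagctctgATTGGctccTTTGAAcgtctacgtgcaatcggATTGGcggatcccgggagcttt
Top2a: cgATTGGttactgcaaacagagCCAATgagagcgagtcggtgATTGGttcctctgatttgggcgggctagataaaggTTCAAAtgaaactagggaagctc
Cdc20: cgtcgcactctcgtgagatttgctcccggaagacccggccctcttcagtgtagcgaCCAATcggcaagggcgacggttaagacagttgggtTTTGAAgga
Hmmr: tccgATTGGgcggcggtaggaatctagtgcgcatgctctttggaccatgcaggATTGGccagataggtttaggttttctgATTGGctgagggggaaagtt
Ccnb1: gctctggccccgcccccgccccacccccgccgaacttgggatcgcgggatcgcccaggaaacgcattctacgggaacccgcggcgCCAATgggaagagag

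The same letters were counted in RefSeq windows of 250 bases before to 50 after each start, which matched 188 of the 238 members and 12279 genes past the CPM minimum, windows on chromosome 18 not being used. A CHR stood in a window of 33 of 45 mitosis members (73.3%), 6 of 24 replication members (25.0%) and 16.9% of all 12279 genes. A CCAAT box stood in 35 of the 45 mitosis members (77.8%), 17 of the 24 replication members (70.8%) and 42.0% of all genes. Both were present in 27 mitosis members (60.0%), 2 replication members (8.33%) and 6.91% of all genes. For 38 lymphoid and myeloid members the CHR share was 28.9% and the CCAAT share 28.9%. The AP-1 letters TGANTCA were found in 0 of 11 early response, 6 of 38 lymphoid and myeloid (15.8%) and 6.60% of all genes, and the CRE letters TGACGTCA in 1 of 11, 0 of 38 and 3.27%. A match is a description of letters and not of a bound site.

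The lymphoid members had a small fall and a steep rise. Their median difference was -0.64 from 2 to 10 months and 1.54 from 10 to untreated 26 months, and the role score was 0.32 to 1.59 in young and 1.21 to 1.95 in untreated old bladders. Cd180, a Toll-like receptor relative of B cells and macrophages, was 3.60, 3.05, 3.46, 3.59 and 4.08 CPM at 10 months, 4.42 to 16 CPM (median 5.68) at 2 months and 7.66 to 16.6 CPM (median 9.74) in untreated old bladders. The groups did not overlap, though the young values other than 16 CPM in bladder 2 were within 4.42 to 7.61 CPM. Prf1 (perforin, the pore of cytotoxic lymphocytes) averaged 1.45 ± 0.368, 0.784 ± 0.196 and 2.23 ± 0.803 CPM. All 21 lymphoid members tested were called higher at untreated 26 than at 10 months and 6 of 20 lower at 10 than at 2 months, and 10 of 21 were called higher at untreated 26 than at 2 months. The shares over all genes were 13.0%, 5.85% and 12.6% in that order, and the rule used the first pair of contrasts.

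Markers of lymphocytes were themselves much higher in the untreated old bladders. A list of 15 B cell genes summed to 27.7 to 39.2 CPM in middle-aged and 136.7 to 359.5 CPM in untreated old bladders, and a list of 26 T and NK cell genes to 45.6 to 51.6 and 110.8 to 230.9 CPM. In young bladders the sums were 18.6 to 32.1 CPM for B cell and 44.5 to 62.4 CPM for T and NK cell genes, both overlapping the middle-aged range. Neither list held more than 1 member, which was Prf1. Of the 15 B cell genes 13 were called higher at untreated 26 than at 10 months, and 21 of the 26 T and NK cell genes were, where 13.0% of all genes were. The part of lymphocyte numbers in the lymphoid members was not tested.

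The myeloid members included Timd4, a receptor of resident macrophages for dying cells, at 1.41 to 2.54 CPM in middle-aged, 1.55 to 6.04 CPM in young and 2.35 to 3.96 CPM in untreated old bladders. Marco, a scavenger receptor, was uneven between bladders of a group. It ran from 0 to 4.22 CPM at 2 months, 0 to 0.358 CPM at 10 months and 0.0380 to 1.91 CPM in untreated old bladders, all overlapping. Batf3, a factor of cross-presenting dendritic cells, averaged 2.40 ± 0.657, 1.53 ± 0.398 and 2.41 ± 0.499 CPM. A list of 20 macrophage and monocyte genes summed to 1604 CPM in young bladder 2, 890 to 1101 CPM in the other young, 849 to 999 CPM in the middle-aged and between 1207 and 1833 CPM in untreated old ones. Young bladder 2 also had the highest myeloid and lymphoid scores of its group, 1.77 and 1.59. That the myeloid members followed macrophage content was not tested.

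The early response members varied widely between bladders of a group. Ccn1, a matricellular target of stretch signalling, was 24.5, 25.4, 6.23, 16.7 and 13.2 CPM at 10 months, 15.8 to 336 CPM (median 62.4) at 2 months and 15.6 to 166 CPM (median 36.7) in untreated old bladders. Ccn2, its relative and a driver of matrix production, ran from 8.89 to 31.5 CPM at 10 months and from 47.7 to 129 CPM in untreated old bladders without overlap, and from 15.3 to 235 CPM in young ones. Dusp1, a phosphatase that ends MAP kinase signalling, was 15.3 to 23.6 CPM at 10 months, below all young bladders at 34.1 to 114 CPM, while untreated old bladders at 22.6 to 69.4 CPM overlapped. Nr4a1, an orphan nuclear receptor, averaged 78.9 ± 88.3, 36.4 ± 26.1 and 81.9 ± 23.9 CPM. Egr2 averaged 2.48 ± 1.73, 1.32 ± 0.453 and 2.13 ± 0.478 CPM.

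Secreted stress and metabolic factors also appeared among these genes. Gdf15, a circulating stress signal, averaged 1.0 ± 0.481 CPM at 2 months, 0.480 ± 0.178 CPM at 10 months and 0.867 ± 0.180 CPM in untreated old bladders. Angptl4, an inhibitor of lipoprotein lipase, averaged 21.2 ± 8.30, 7.96 ± 3.46 and 16.6 ± 4.81 CPM. Ankrd1, a stretch-induced muscle protein singled out here after its values were seen, had the deepest U of all members. Its levels were 0.753, 0.191, 0.471, 1.64 and 0.579 CPM at 10 months, 0.470 to 31.3 CPM (median 2.83) at 2 months and 2.09 to 5.38 CPM (median 3.86) in untreated old bladders. The young bladders overlapped the middle-aged ones and the untreated old bladders did not. Of 30 listed immediate early genes 6 were members, beside 238 of all 16484 genes past the CPM minimum. Of the 29 tested, 3 were called lower at 10 than at 2 months, where 5.85% of all genes were. At untreated 26 against 10 months 9 were called higher, where 13.0% of all genes were.

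Of the striated muscle members, Myh2, the fast IIA myosin heavy chain, was 2.78, 4.17, 4.79, 12 and 9.90 CPM at 10 months, 5.40 to 101 CPM (median 26.5) at 2 months and 12.1 to 32.3 CPM (median 17) in untreated old bladders. Myh1, the fast IIX chain, averaged 1.76 ± 1.04, 0.595 ± 0.290 and 1.44 ± 0.349 CPM, and Ryr1, the calcium release channel, 2.19 ± 0.310, 1.49 ± 0.356 and 2.43 ± 0.563 CPM. The list of 24 skeletal muscle genes as a whole did not trace a U in its sum, which was 565 to 1277 CPM at 2 months, 514 to 833 CPM at 10 months and 435 to 550 CPM in untreated old bladders. Skeletal muscle is not a normal layer of the bladder body, and the source of these reads was not tested.

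The matrix members were led by Ogn (osteoglycin, a small leucine-rich proteoglycan), at 103, 111, 140, 120 and 132 CPM at 10 months, 94.5 to 250 CPM (median 179) at 2 months and 162 to 246 CPM (median 178) in untreated old bladders. Adamts9, a protease of versican, averaged 76.1 ± 24.6, 42.0 ± 7.0 and 64.0 ± 3.32 CPM. Cilp averaged 13.2 ± 8.33, 5.54 ± 1.05 and 11.7 ± 2.11 CPM. Thbs4 (thrombospondin 4) was mainly an old-age gene, at 0.389 ± 0.143, 0.215 ± 0.0645 and 0.964 ± 0.354 CPM, and Fbn2 (fibrillin 2, of developing microfibrils) mainly a young one, at 1.17 ± 0.829, 0.118 ± 0.0858 and 0.232 ± 0.163 CPM. Their U shapes were thus of unequal arms. Of 33 matrix growth genes of a list that were tested, 10 were called lower and 1 higher at 10 than at 2 months, and 6 higher and 2 lower at untreated 26 than at 10 months. Of all 16754 genes tested in the first contrast, 980 were called lower (5.85%) and 831 higher. Of all 17156 tested in the second, 2231 were called higher (13.0%) and 1879 lower.

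Gsdmc2, the most abundant member at 10 months, and Gsdmc3 are gasdermin C genes, a family of membrane pore proteins. Gsdmc2 was 148, 168, 149, 218 and 138 CPM at 10 months, 247 to 495 CPM (median 359) at 2 months and 205 to 369 CPM (median 261) in untreated old bladders, so the young bladders lay clear of the middle-aged ones and the untreated old overlapped by 1 middle-aged bladder. Gsdmc3 averaged 99.7 ± 26.1, 39.6 ± 7.84 and 63.6 ± 20.7 CPM. They lie side by side at chr15:63824346-63845177 and chr15:63857724-63878558 and are close copies, so the counting may have divided reads between them. Among neural members, Mag, a myelin protein, averaged 0.841 ± 0.443, 0.441 ± 0.119 and 0.845 ± 0.289 CPM, and Tubb3, neuronal tubulin, 1.57 ± 1.06, 0.520 ± 0.190 and 0.985 ± 0.383 CPM. Their lists as a whole did not trace a U. The sum of 15 Schwann cell and myelin genes was 442 to 496 CPM in young, 390 to 409 CPM in middle-aged and 364 to 386 CPM in untreated old bladders. The sum of 30 neuron and neuroendocrine genes was 177 to 364, 298 to 327 and 194 to 269 CPM in the same order. At untreated 26 against 10 months, 2 of the 15 Schwann cell and myelin genes were called higher and 4 lower. Of all 17156 genes tested there, 2231 were called higher (13.0%) and 1879 lower.

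Mthfd2, Insrr and Pcdh20 were further members whose middle-aged bladders did not overlap the young or untreated old ones. Mthfd2, of mitochondrial one-carbon metabolism, was 2.43 to 3.41 CPM at 10 months, 3.76 to 9.17 CPM in young and 4.10 to 6.85 CPM in untreated old bladders. Insrr, an alkali-sensing relative of the insulin receptor, was 0.735 to 1.02, 1.20 to 2.64 and 1.33 to 2.97 CPM, and Pcdh20, a protocadherin, 0.0565 to 0.197, 0.260 to 0.777 and 0.533 to 0.766 CPM, in the same order. H19, an imprinted growth-restricting RNA, kept mostly its young arm, with 4.56 ± 1.6 CPM at 2 months, 0.917 ± 0.196 CPM at 10 months and 1.55 ± 0.552 CPM in untreated old bladders. Fst (follistatin, which traps activin) rose above its young level, with 3.41 ± 1.26, 1.96 ± 0.352 and 6.48 ± 1.91 CPM.

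Hif3a, a member of the hypoxia factor family, averaged 8.70 ± 2.12, 5.85 ± 0.905 and 9.44 ± 1.94 CPM, and Ica1l 2.69 ± 0.975, 1.18 ± 0.686 and 1.58 ± 0.408 CPM. Pck1, of gluconeogenesis, ran from 0.239 to 6.52 CPM at 2 months, 0.0565 to 2.93 CPM at 10 months and 0.805 to 8.01 CPM in untreated old bladders. Its membership rested on middle-aged bladder 4, without which its 10-month mean was 0.079 above the 2-month mean on the log2(CPM + 0.1) scale. Gm47283, which is annotated on the Y chromosome, was counted in these female bladders, so its reads cannot be placed there. In all, 81 members overlap another annotated gene (34.0%, against 40.2% of genes past the minimum), among them Cd180, Insrr, Ogn, E2f7, Dusp1, Ccn2, Adamts9, Myh2, Myh1, Ryr1, Fst and Ica1l of those described. Whether the counting used strand is not given in the sources used here, so reads of overlapping genes could not be separated.

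**Figure D3:**
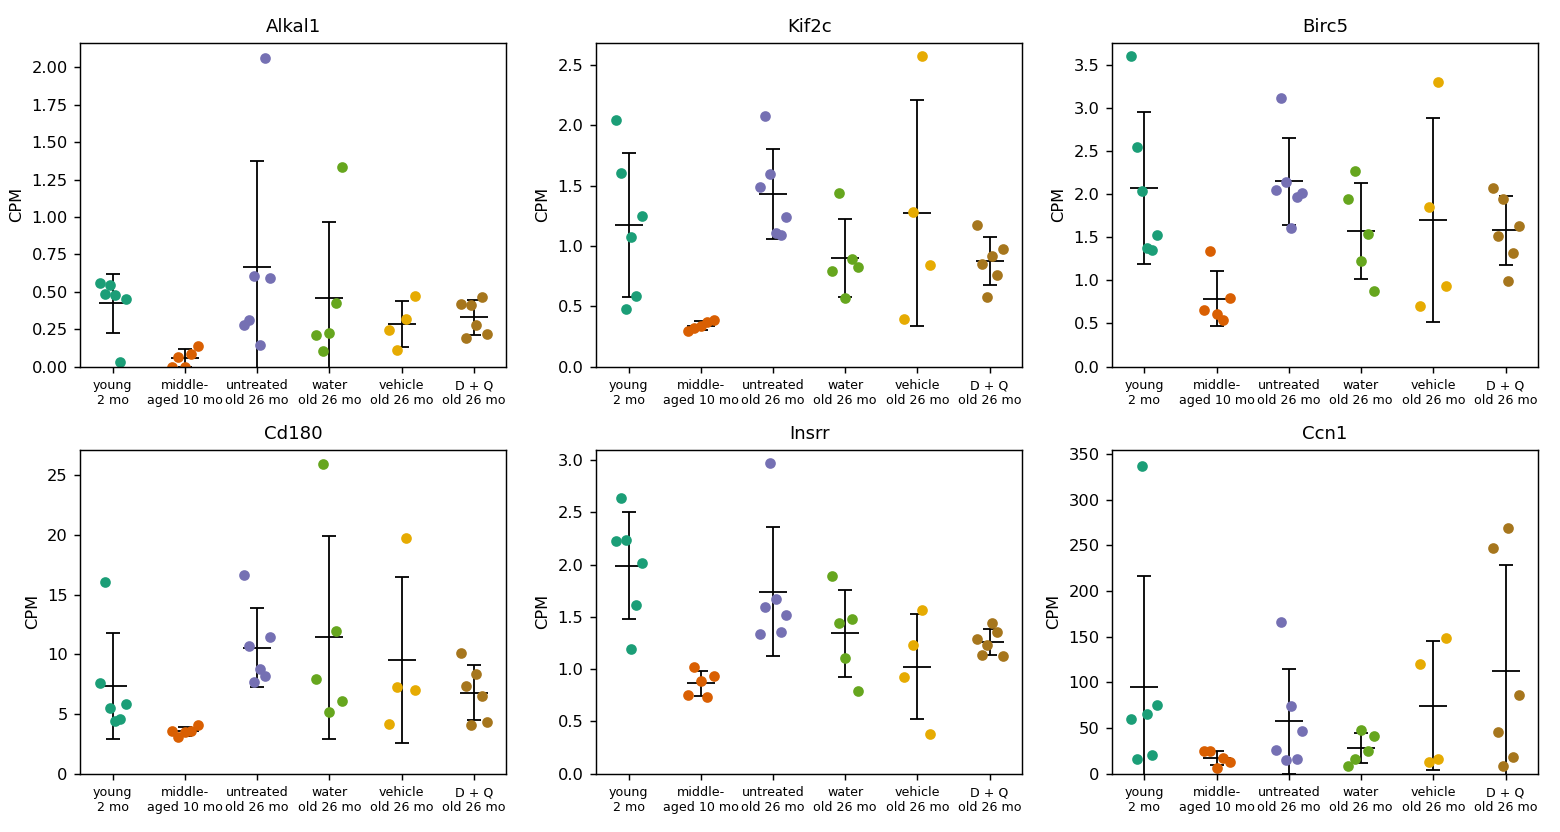
Points are bladders, bars are group means and whiskers are SD, cut at 0. The vertical axis is CPM on a linear scale, for Alkal1, Kif2c, Birc5, Cd180, Insrr and Ccn1, in the 6 groups. For Kif2c, Birc5, Cd180 and Insrr the middle-aged bladders lie below all young and untreated old ones. The margin is as little as 1.34 against 1.35 CPM for Birc5. Some gavaged bladders reach into or below the middle-aged range, at least for Alkal1, Birc5, Insrr and Ccn1. Ccn1 shows the widest spread within groups, up to 336 CPM in a young bladder.

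Between the ends of the U, 34 of 234 members tested were called different at untreated 26 and 2 months, 28 higher and 6 lower. Over all genes 25.1% were called in either direction, 12.6% higher and 12.4% lower. The share of members called higher was thus close to that of all genes, and only the share called lower was well below it. The rule set no bound on this difference but its thresholds used both groups. By role, the 28 higher were 10 lymphoid, 1 myeloid, 1 early response, 1 striated muscle, 1 matrix, 6 of other role and 8 with a provisional symbol.

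The gavaged old bladders had no part in the choice of members, apart from the scaling factors. Of the 238 members, 236 had a higher mean in water, 234 in vehicle and 238 in D + Q bladders than at 10 months, where 47.1%, 45.0% and 44.8% of all genes with a mean CPM of 0.5 or more did. The mean was higher by 0.5 or more for 173, 180 and 164 members, where 7.18%, 7.40% and 6.4% of all genes were. Every bladder of the group lay above every middle-aged bladder for 69, 52 and 69 members, where 6.48%, 4.54% and 5.16% of all genes did. The middle-aged bladders were chosen low by the rule and serve all 3 comparisons, so these counts are no test and are not independent of each other. The median difference from 10 months was 0.70 in water, 0.81 in vehicle and 0.69 in D + Q bladders, on the log2(CPM + 0.1) scale.

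**Figure D4:**
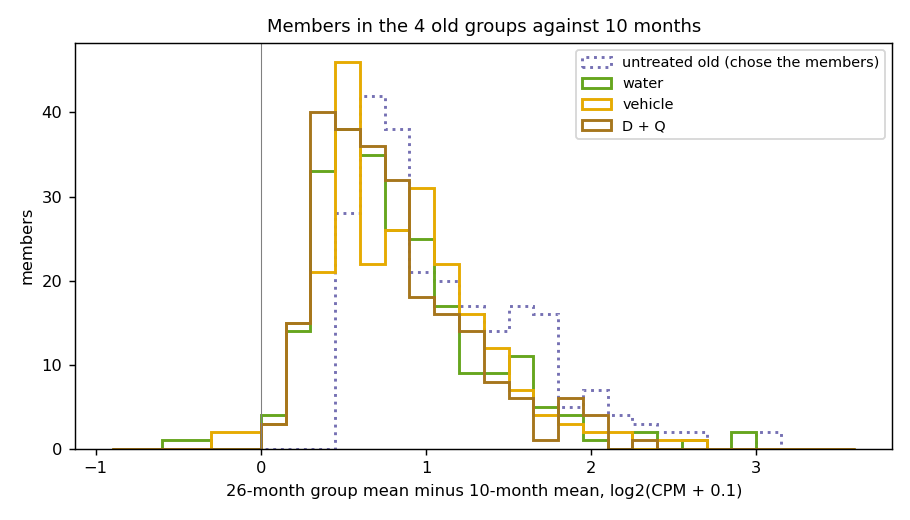
Histograms of the 238 members by 26-month group mean minus 10-month mean on the log2(CPM + 0.1) scale. The dotted line is untreated old, which chose the members and starts at 0.5, and solid lines are water, vehicle and D + Q. The 3 gavaged groups overlap each other and peak at lower differences than untreated old, with medians of 0.69 to 0.81.

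The gavaged groups lay a little below the untreated old one. The group mean was under that of untreated old for 204 members in water, 194 in vehicle and 217 in D + Q bladders, where 45.1%, 47.7% and 48.5% of all genes were. The untreated old bladders were chosen high, so a lower level elsewhere is built into the choice. EdgeR called 0 of 236 members against untreated old in water, where 1.0% of all genes were called, 0 of 236 in vehicle and 0 of 233 in D + Q, where none was. At an unadjusted p under 0.05 the counts were 34, 7 and 101 members, where 16%, 8.39% and 12.9% of all genes were, and DESeq2 called 2, 2 and 11, where it called 4.08%, 0.757% and 1.06% of all genes. Those of DESeq2 were Slc1a3 and Ogn in water and Nr4a1 and Ptgs2 in vehicle. In D + Q they were Scn4a, Lcp2, Ikzf1, Dram1, Ly86, Fam111a, Bub1, Rac2, Prf1, Tlr1 and Gm15987. All are named here only because they were called. All members called by DESeq2 were lower than in untreated old bladders.

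Comparisons among the gavaged groups were the ones that the rule left free, and no member was called in them. Against vehicle, D + Q changed 0 of 234 members tested by edgeR at an adjusted p under 0.05, with 8 at an unadjusted p under 0.05 and a median log2 fold change of -0.19 over members and -0.0027 over all genes. Against water it changed 0 of 235, with 17 at an unadjusted p under 0.05 and a median of -0.06. Vehicle against water gave 0 of 235, with 2 at an unadjusted p under 0.05 and a median of 0.10. DESeq2 also called 0 members in each. Over all genes edgeR called none in these comparisons, while 4.18%, 7.82% and 1.86% had an unadjusted p under 0.05.

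Single members show how wide the intervals were. Mki67 was 16.4, 28.3, 7.55, 11.6 and 8.04 CPM in water bladders, 4.14, 14.1, 30.0 and 13.5 CPM in vehicle bladders and 10.3 to 19 CPM (median 12.4) in D + Q bladders. Its log2 fold change was -0.24 ± 0.39 (SE, edgeR, adjusted p = 0.994) for D + Q against vehicle and -0.13 ± 0.31 (adjusted p = 0.950) against water. Kif2c gave -0.54 ± 0.41 (adjusted p = 0.994) and -0.04 ± 0.24 (adjusted p = 0.985). Cd180 gave -0.49 ± 0.40 (adjusted p = 0.994) and -0.75 ± 0.39 (adjusted p = 0.681). Nr4a1 was higher by 1.13 ± 0.50 against vehicle at an unadjusted p of 0.0464 (edgeR, adjusted p = 0.994) and lower by 0.20 ± 0.73 against water, so the direction was not shared.

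Vehicle bladders 1 and 3 marked the extremes of their group. The replication and mitosis score was 0.08, 0.83, 1.61 and 0.47 in the 4 vehicle bladders, 0.80, 1.30, 0.35, 0.74 and 0.25 in the 5 water bladders, and 0.50 to 1.03 in the 6 D + Q bladders. The lymphoid score was 0.17, 0.94, 2.25 and 1.10 in vehicle, 1.48, 2.01, 0.68, 1.24 and 0.80 in water and 0.70 to 1.44 in D + Q bladders. Sums of the T and NK cell list were 51.7, 90.8, 203.9 and 101.4 CPM in vehicle bladders and of the B cell list 92.2, 155.5, 611.2 and 178.1 CPM. Vehicle bladder 3 was thus highest and vehicle bladder 1 lowest of its group on all 4 measures, and vehicle bladder 1 lay at the 10-month level for replication and mitosis. The part of lymphocyte content in the spread of the members was not tested.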

How the data were processed

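Libraries were made from total RNA of 32 whole bladders, 4 to 6 per group, with a stranded total RNA kit. The authors aligned reads with STAR 2.7.3 to mm10 and counted them per gene with Subread's featureCounts, and the deposited counts are whole and not normalised. A deposited log2 table of length-scaled values was used only as an alternative. From the counts, CPM with TMM factors over all 32 bladders and log2(CPM + 0.1) group means were computed. Comparisons used edgeR 4.0.16 (quasi-likelihood test, Benjamini-Hochberg adjustment over all genes tested, 2 groups per fit, R 4.3.3), and DESeq2 1.42.0 as an alternative. The fits were tested on simulated data. Samples were grouped by their labels. The labels call the samples separate replicates and no more, so p-values measure the spread between these bladders. Depth limits genes near 3 counts, a floor that covers counting error only.

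Named genes were Alkal1, the 12 members with the deepest U among those without overlap at 10 months, the 6 most abundant, up to 3 of each of 40 gene lists with the deepest U, and the 2 genes nearest each side of the threshold. The members and lists were chosen with earlier results of these data known, and roles were assigned with the members in view. Alternatives covered the pseudocount, CPM minimum, normalisation, filters, test, replicate block and leaving out each bladder. Leaving out shallow bladders, and reading selected genes in a bladder left out, were chosen after seeing the data. Promoter letters are RefSeq's on GRCm38.p6.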

Additional observations from a re-analysis of the deposited data

Results flagged for a closer look

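In 9 of 168 group and item combinations checked, 1 bladder stood apart from the rest of its group by Dixon's criterion, which chance alone meets in about 1 of 20. Values are on the log2(CPM + 0.1) scale, and scores are relative to the 10-month mean. D + Q bladder 1 stood above the other D + Q bladders for the mitosis score (1.07 against 0.49 to 0.68), the replication score (0.96 against 0.50 to 0.66) and both together (1.03 against 0.50 to 0.65). D + Q bladder 2 stood below the others for the myeloid score, at 0.37 against 0.72 to 0.92. Young bladder 2 had a lymphoid score of 1.59, where the other young bladders had 0.32 to 0.78. Untreated old bladder 4 was low for members with a provisional symbol, at 0.98 against 1.36 to 1.48. Among single genes, Alkal1 was -2.95 in young bladder 5 against -0.86 to -0.61 in the others. E2f7 was -1.41 in middle-aged bladder 3 against -0.93 to -0.76, and Insrr was 1.62 in untreated old bladder 3 against 0.52 to 0.82.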

How the results depend on the processing

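The size of the set depended on the selection settings: 111 genes with a pseudocount of 1, 142 with a mean CPM of 2 or more, 357 without the 2 young bladders under 20000000 counts, and 207 to 289 when 1 bladder was left out. The count of members called lower at 10 than at 2 months was 33 to 163 over bladders left out (33 without middle-aged bladder 5, 163 without young bladder 4) and 180 without the bladders under 20000000 counts. Bladders of the same number in the sample titles were not shown to be paired (44 pairs, r from -0.31 to 0.18, 6 above 0.1), and with the replicate block this count was 46. For 6 bladders the sample description gives another number. By description number, a check added after seeing the data, r ran from -0.30 to 0.24 over 44 pairs, 11 of them above 0.1, no comparison had every pair above 0.1, and the block count was 76, with 205 and 40 for untreated 26 against 10 and 2 months. The block by title number gave 192 and 40 for untreated 26 against 10 and 2 months and both blocks gave 0 in the other 6 comparisons. Leaving out 1 bladder gave 193 to 212 calls for untreated 26 against 10 months and 25 to 39 against 2 months, and requiring 10 counts in every bladder gave 22 for the latter.

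Against untreated old bladders DESeq2 called 2 members in water, 2 in vehicle and 11 in D + Q, and leaving out 1 bladder gave 0 to 1 in water (Hmmr, without water bladder 2). With a pseudocount of 1, 89 members in water, 95 in vehicle and 83 in D + Q were 0.5 or more above 10 months, and with 1 bladder left out 149 to 185, 134 to 202 and 151 to 172. The vehicle range was set by bladders 3 (134) and 1 (202). Of 1170 alternatives for the differences of named members, 1141 stayed within 1 SD, 28 moved further, and the 10-month minus 2-month difference of Pck1 ranged from -1.19 without young bladder 4 to 0.079 without middle-aged bladder 4. The causes were not tested.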
